A study of Mus musculus with 72 samples.

Results

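Liver RNA of germ-free (GF) mice that lacked the clock gene Bmal1 in hepatocytes (LKO) was compared with liver RNA of GF mice that kept it (WT), over the whole day. The 35 libraries compared, 18 GF LKO and 17 GF WT, were all GF libraries of a series of 72 except 1, which went against its label. Both genotypes were male C57BL/6 mice that carried floxed Bmal1 alleles (Bmal1 fl/fl). The LKO mice carried Albumin-cre in addition, in which the albumin promoter drives Cre recombinase and deletes the floxed exon in hepatocytes. The WT mice carried no Cre, so effects of the Cre transgene and of Bmal1 loss cannot be told apart. The GF mice had been re-derived without microbes and lived in isolators, the conventional mice of the series were specific-pathogen free (SPF), and all were 10 to 14 weeks old when they were housed singly. Livers were taken at 6 times of day, named by zeitgeber time (ZT), which counts the hours since the lights went on in a day of 12 hours of light and 12 of darkness. These were ZT2, ZT6, ZT10, ZT14, ZT18 and ZT22, with 3 mice of each genotype at each ZT and 1 mouse per library. p-values therefore set a difference against the spread between mice, which the tests at single ZT estimated over all 12 groups of genotype and ZT together.

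BMAL1, encoded by Arntl, pairs with CLOCK or NPAS2 and switches on genes that hold an E-box, among them the Per and Cry genes, whose proteins switch the pair off again. The same pair drives Nr1d1 and Nr1d2, which encode the REV-ERB repressors, and these silence Arntl, Npas2 and Cry1. A further layer runs through the D-box, which DBP, TEF and HLF activate and NFIL3 represses. In the liver this clock times many genes of hepatocytes, the cells that make most plasma proteins and clear drugs and hormones. The comparison asks which genes lie at another level at all times of day once hepatocytes lack BMAL1 in the absence of gut microbes, and which processes beyond sugar and lipid metabolism these genes belong to.

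Totals lay between 17369927 and 20048880 counts per library, and 14065 of 55573 genes had enough counts to be tested. Levels are given as counts per 1000000 counts of the library (CPM), scaled by TMM factors, and folds as log2 (LKO over WT) from a model with ZT as a factor. Albumin RNA alone took 7.85% to 11.3% of the counts of GF WT libraries and 2.58% to 4.22% of those of GF LKO libraries, and the TMM factors, which correct for such shifts, were 0.875 to 0.984 in WT and 1.023 to 1.118 in LKO. Under TMM the median log2 fold change of all genes was 0.005. Scaled to library totals alone, an alternative added after the data were seen, that median moved to 0.19, so direction is given here relative to TMM, and beside each gene list whose balance of calls turned with library totals the turned counts are given. The hepatocyte markers other than Alb summed to 33930 to 43797 CPM in WT and 33203 to 40293 CPM in LKO, so the tissue was as labelled. The left-out library, GF WT ZT6 replicate 3, held 7.78 CPM of Arntl and 8.86 CPM of Nr1d1, against 1.53 and 2.30 CPM and 47.8 and 46.6 CPM in the other ZT6 libraries, and 5792 CPM of Cyp3a11 against 704 and 555 CPM.

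In GF LKO livers the 9 clock genes plotted by ZT had a flatter daily course than in GF WT livers, above the WT levels for some genes and below them for others. Of the 3 activators and the nuclear receptor gene Rora 2 rose and none fell, against 17.6% of all genes tested that rose and 18.4% that fell (edgeR adjusted p under 0.05). Of the 10 repressors 2 rose and 5 fell, and of the 4 D-box factors 2 fell, Hlf and Dbp. Dbp was no longer called without ZT6 (log2 fold change -0.92, edgeR adjusted p = 0.0987) or without ZT10 (log2 fold change -0.81, edgeR adjusted p = 0.162). For 14 of these 18 genes the genotype effect depended on ZT, against 4.04% of all genes tested.

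The reads of Arntl were counted over the whole gene and so do not show the deletion itself. They lay between 6.66 and 12.7 CPM (median 9.57) in the 18 LKO libraries and between 0.316 and 38.8 CPM (median 25.1) in the 17 WT libraries. WT livers were high at ZT18, ZT22 and ZT2 and low at ZT6 and ZT10, while LKO livers stayed within a narrow band, which crossed the WT course. The ZT10 means were 0.581 ± 0.306 CPM in WT and 8.11 ± 1.0 CPM in LKO (SD, n = 3 each), and the ZT22 means were 34.3 ± 3.90 and 10.7 ± 1.82 CPM. Arntl was thus not called over all ZT (log2 fold change -0.33, edgeR adjusted p = 0.481), but its effect depended on ZT (edgeR adjusted p = 1.94e-14).

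Npas2, which can stand in for CLOCK as the partner of BMAL1, was higher in LKO at every ZT. It lay between 0 and 12.3 CPM (median 0.342) in WT and between 15.9 and 42.3 CPM (median 24.7) in LKO, so that the lowest LKO library exceeded the highest WT library. The rise was 3.56 (SE 0.37) on the log2 scale over all ZT (edgeR adjusted p = 1.25e-09). Clock, the usual partner, rose by 0.53. Cry1 rose by 1.44, from a WT mean of 4.94 CPM at ZT6 to 58.9 CPM at ZT18 against 59.3 to 84.8 CPM in LKO over the ZT. All 6 LKO means of Cry1 thus lay above the highest WT mean. For Clock the LKO means, 100 to 122 CPM, reached past the highest WT mean of 114 CPM.

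Among the repressors that BMAL1 drives directly, Nr1d2 was lower in LKO at every ZT, with a log2 fold change of -2.22 (SE 0.16). Its levels spanned 11.3 to 137 CPM (median 56.9) in WT and 6.75 to 19.3 CPM (median 10.6) in LKO. These ranges overlapped over the day, but not at any single ZT. Nr1d1 fell by 2.49 on the log2 scale over all ZT, from a WT mean of 47.6 CPM at ZT6 against 2.82 CPM in LKO, while at ZT18 the means were 0.950 and 1.14 CPM. Bhlhe41 (log2 fold change -3.63), Ciart (-3.18) and Per3 (-1.29) fell as well. Per1 and Per2 were not called over all ZT, with log2 fold changes of -0.04 and 0.02. By ZT the log2 fold change of Per2 ran from -0.71 to 1.42.

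Dbp, the D-box activator with the steepest daily rise in WT livers, averaged 76.3 CPM at ZT10 in WT and 5.29 CPM in LKO. At ZT22 the order was turned, with means of 0.860 ± 0.158 CPM in WT and 2.33 ± 0.701 CPM in LKO (SD, n = 3 each). Hlf fell by 0.40 on the log2 scale. Tef kept a log2 fold change of -0.13 over all ZT (edgeR adjusted p = 0.595), while its WT means ran from 40.7 to 259 CPM and its LKO means from 89.5 to 112 CPM.

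**Figure D1:**
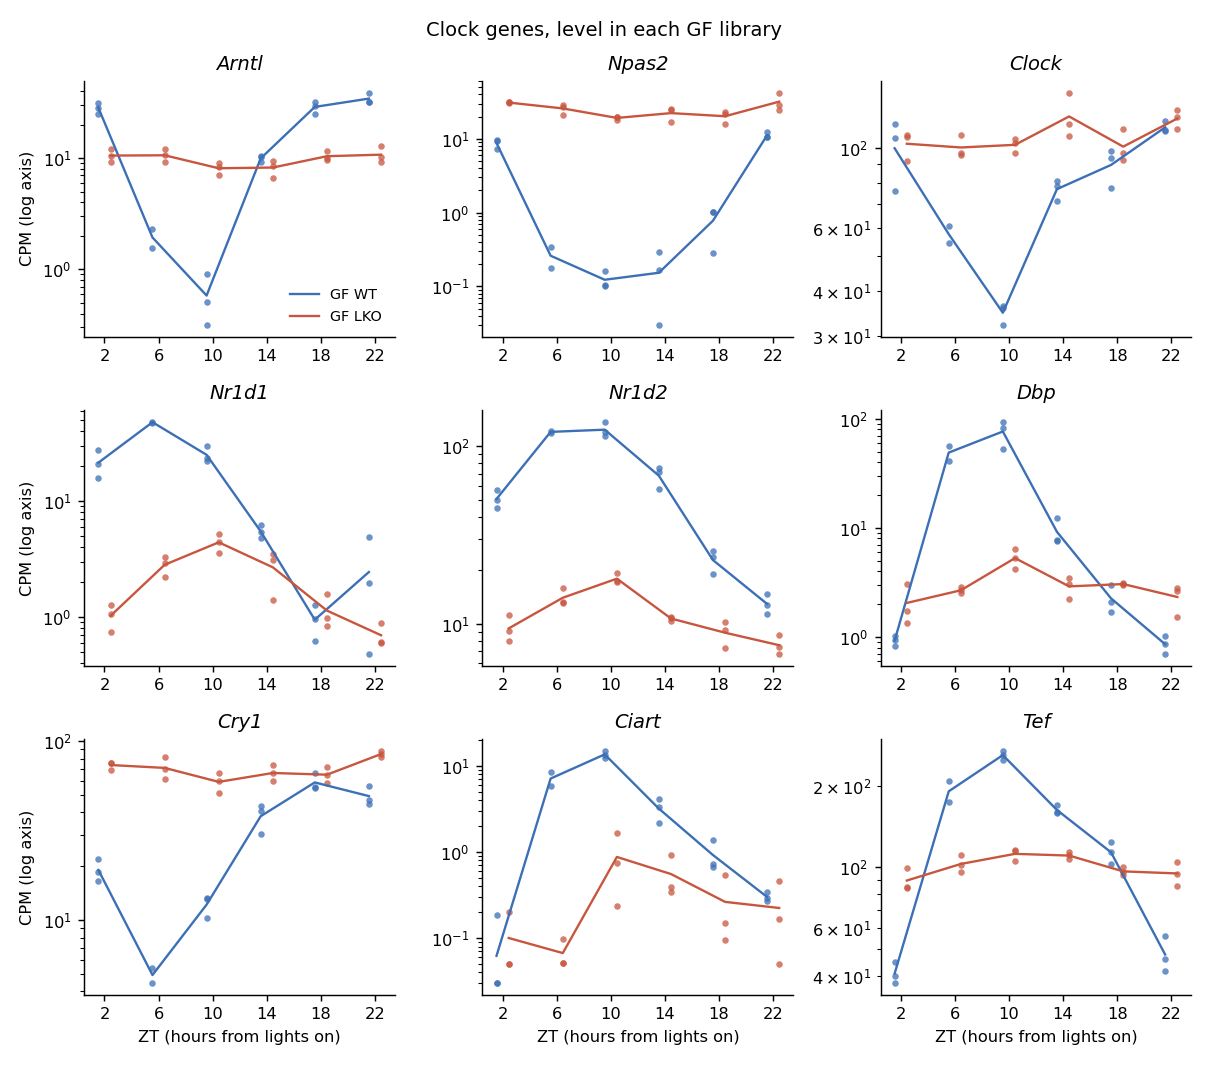
Levels of 9 clock genes in CPM (log axis) by ZT in hours from lights on; each point is 1 GF library, blue WT and red LKO, lines join the means, and a level of 0 is drawn at 0.03 CPM. Npas2 was higher in all 18 LKO libraries than in all 17 WT libraries, and the LKO course of Arntl, between 6.66 and 12.7 CPM, crossed the WT course.

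Since BMAL1 acts at E-boxes, the RefSeq promoters of GRCm38.p6 (250 bases before to 50 after each start) were searched for CACGTG on both strands, which reads the same on either. Of 41 clock genes and genes with the largest shifts at every ZT, 34 had a promoter in the table and 6 of these held the motif, and over all 10528 tested genes with a promoter the share was 11.5%. The stretches of the clock genes that fell or rose with the motif are shown 5′ to 3′, with the E-box in capitals. Ciart, on the minus strand at chr3:95882247-95882364, held 3 of them, at positions -116 to -44 from its start. Bhlhe41 lies on the minus strand at chr6:145865548-145865593, and Cry1 on the minus strand at chr10:85185089-85185134.
Ciart: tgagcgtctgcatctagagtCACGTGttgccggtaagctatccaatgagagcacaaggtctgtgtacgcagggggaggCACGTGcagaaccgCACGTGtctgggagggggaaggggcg
Bhlhe41: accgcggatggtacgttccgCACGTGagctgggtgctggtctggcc
Cry1: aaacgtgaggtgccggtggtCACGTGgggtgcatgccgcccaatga
The same letters thus stood in promoters of genes that fell, Ciart and Bhlhe41, and of a gene that rose, Cry1. Among genes higher at every ZT 9.57% of 115 promoters held the motif, and among genes lower at every ZT 11.8% of 127, both near the share of all tested genes. Of 429 genes with a promoter whose effect depended on ZT, 14.9% held it, above the 11.5% of all tested genes. No test was run on these shares. Other forms of the E-box and sequence further from the start were not searched. Nr1d1, Nr1d2, Dbp and Per3 held no CACGTG in the stretch searched, so these shares do not show which genes BMAL1 binds.

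Over the whole transcriptome 2469 genes passed the test as higher in GF LKO livers and 2582 as lower, with ZT as a factor. Most of these shifts were small, with a median size of 0.34 on the log2 scale, and 351 genes rose and 331 fell by at least 1. Scaled to library totals without TMM factors the counts were 6973 higher and 1093 lower, and with Alb also left out of the totals 4272 and 1589, so the balance of the directions rests on the scaling. Tested ZT by ZT, 15% of genes were called for ZT14 and 14.8% for ZT10. The share was 13.4% for ZT18, 10.5% for ZT6, 6.70% for ZT22 and 5.85% for ZT2. The order at the top depended on the settings. With GF WT ZT6 replicate 3 kept, ZT6 had the highest count (2097 genes, against 1908 for ZT10 and 1907 for ZT14), and with library totals ZT18 had it, with 3655 genes, or 2487 with Alb left out. At ZT6 WT had 2 libraries, and the ZT6 count of 1474 genes fell to 699 without the first of them and to 950 without the second. Without GF LKO ZT2 replicate 3 the ZT2 count fell from 823 to 521.

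Genes called in 1 direction at a single ZT numbered 2011, those called at 5 ZT 209 and those called at all 6 ZT 318. Of the 318, 147 were higher in LKO (1.05% of genes tested) and 171 were lower (1.22%), and without GF WT ZT6 replicate 1 the total fell to 242. A further 1765 genes were called with ZT as a factor but at no single ZT. The median log2 fold change was 1.57 in the 147 and -1.30 in the 171, and 294 of the 318 code for proteins. For 201 of the 318, all 18 LKO libraries lay on one side of all 17 WT libraries, whatever the ZT, as was so for 1.60% of genes tested. The interaction with ZT was past the threshold for 49 of them and not for the other 269.

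**Figure D2:**
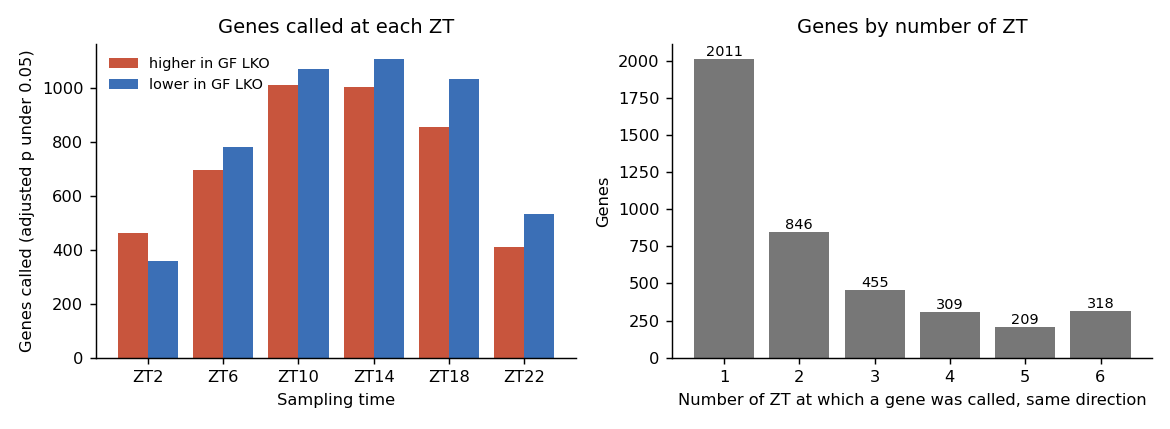
Left, genes called in GF LKO against GF WT at each ZT (adjusted p under 0.05), with red bars for genes higher and blue bars for genes lower in LKO; right, genes by the number of ZT at which they were called in the same direction. With TMM factors ZT10 had 1010 genes higher and 1069 lower and ZT14 had 1003 higher and 1107 lower, an order that changed with the scaling and with the left-out library, and 318 genes were called at all 6 ZT.

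The largest of the increases at every ZT was that of Sult1e1, the sulfotransferase that inactivates estrogens. It lay between 0.684 and 5.99 CPM (median 1.92) in WT and between 22.7 and 241 CPM (median 104) in LKO, with no overlap. Its log2 fold change was 5.39 (SE 0.30), and by ZT between 4.58 and 6.10. Lpl, which encodes lipoprotein lipase, an enzyme that livers of adult mice hold at low levels, lay between 26.7 and 106 CPM (median 54.8) in WT and between 598 and 1027 CPM (median 835) in LKO. The ranges did not touch. The increase was 3.96 (SE 0.13) on the log2 scale.

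The other large increases at every ZT mostly started from near absence. Tox2, a nuclear HMG-box protein, had a median of 0.215 CPM in WT and 11.9 CPM in LKO (log2 fold change 5.29). Ntrk2, the receptor of the neurotrophin BDNF, rose by 5.20, Slc34a2, a phosphate transporter, by 4.52, Hebp2, a heme-binding protein, by 4.24 and Nckap5 by 3.31 on the log2 scale. Their WT medians were all under 0.5 CPM. Loxl4, a lysyl oxidase that crosslinks collagen, rose by 4.0, with log2 fold changes from 2.16 at ZT22 to 6.09 at ZT14. Defb1, an antimicrobial defensin, rose by 3.78 from 0.964 to 16.1 CPM (medians). Cyp2c55, an enzyme that oxidises fatty acids and drugs, rose by 3.44 and Grk5, a kinase that desensitises G protein-coupled receptors, by 3.25.

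The largest decrease at every ZT was that of Nat8, an acetyltransferase that completes the mercapturic acids by which glutathione conjugates are excreted. It lay between 14.8 and 42.4 CPM (median 24.1) in WT and between 0.0977 and 1.22 CPM (median 0.521) in LKO, and fell by 5.58 (SE 0.16) on the log2 scale. Mme, the cell-surface peptidase neprilysin, lay between 33.5 and 108 CPM (median 70.3) in WT and between 0.768 and 3.32 CPM (median 1.93) in LKO. It fell by 5.11 (SE 0.16). No LKO library reached the lowest WT library in either gene, and neither effect depended on ZT (edgeR adjusted p = 0.973 and 0.0978).

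Rgs16, which ends signals of G protein-coupled receptors, fell by 5.53 on the log2 scale, and its WT range of 1.79 to 133 CPM overlapped the LKO range of 0 to 5.72 CPM. Acot3, a peroxisomal thioesterase, fell by 4.92 and Col27a1, a fibrillar collagen, by 3.68. Gpx6, a glutathione peroxidase, fell by 3.63 and Slc16a5, a carrier of the monocarboxylate family, by 3.33. Rcan2, an inhibitor of calcineurin, fell by 2.86 and Aqp4, a water channel, by 2.77. Cyp2a5, which oxidises nicotine and coumarin, fell by 2.98 from a median of 464 CPM to 46.3 CPM, with log2 fold changes from -1.43 at ZT2 to -4.39 at ZT10. Ces1d, a carboxylesterase of the endoplasmic reticulum, fell by 2.73 from a median of 1231 CPM to 177 CPM.

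**Figure D3:**
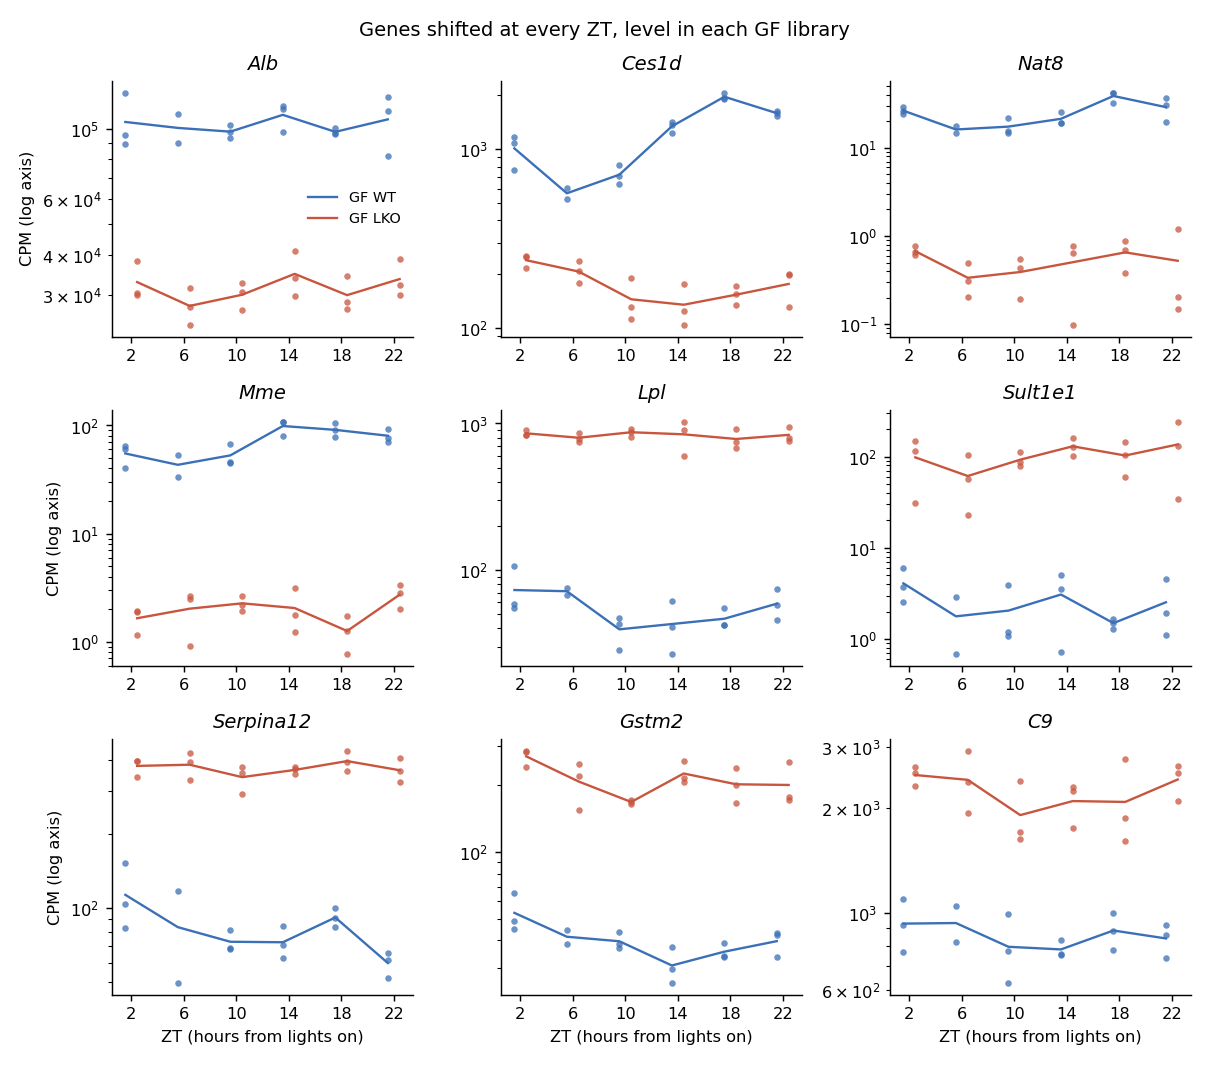
Levels of 9 genes shifted at every ZT in CPM (log axis) by ZT in hours from lights on; each point is 1 GF library, blue WT and red LKO, and lines join the means. In each of the 9 panels all 18 LKO points lie on one side of all 17 WT points, below them for Alb, Ces1d, Nat8 and Mme and above them for Lpl, Sult1e1, Serpina12, Gstm2 and C9. Alb and Serpina12 were picked after their values had been seen.

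Albumin was the gene with the largest share of the RNA, and it was among the 171 genes lower at every ZT. It is described although its values had been seen, because its promoter drives the Cre. Alb, at chr5:90460897-90476602 in GRCm38, lay between 81806 and 129672 CPM (median 97871) in WT and between 24149 and 41165 CPM (median 30506) in LKO. The highest LKO library thus held less than the lowest WT library. The log2 fold change was -1.71 (SE 0.07, edgeR adjusted p = 7.98e-21) and lay between -1.86 and -1.66 at the 6 ZT, with no detectable dependence on ZT (edgeR adjusted p = 0.992). Its neighbours of the same gene family, picked after their values had been seen, did not share this size of shift. Afm fell by 0.27 on the log2 scale, Gc had a log2 fold change of -0.09 (edgeR adjusted p = 0.0653) and Afp one of 0.34 (edgeR adjusted p = 0.0581). Scaled to library totals, Gc turned to 0.10 and was then called, while Alb stayed lower. Of the 8 hepatocyte markers 1 rose (12.5%) and 2 fell (25%), Alb among them, against 17.6% and 18.4% of all genes tested. With library totals alone 4 of the markers rose and 1 fell. With TMM factors Ttr fell by 0.21, Serpina1c rose by 0.28, and Apoa1, Apob, Cps1, Hnf4a and Tat were not called. In bulk RNA, fewer cells of a type and less RNA per cell cannot be told apart.

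DBP takes its name from the D site of the albumin promoter, so the promoters were searched for the D-box, TTATGTAA or TTACGTAA, on both strands. Of 127 genes lower at every ZT with a promoter in the table, 8 (6.30%) held a D-box, against 1 of 115 genes higher at every ZT (0.870%) and 0.940% of the tested genes. Among genes whose effect depended on ZT the share was 3.03%. No test was run on these shares, and a match is not a bound site. Whether either match in Alb is the D site that DBP is named for was not examined. The stretches of 5 of the 9 genes are shown, those with the highest RNA levels and Prlr, the gene that rose, with the D-box in capitals. Alb holds the motif at 2 places on the plus strand, at chr5:90460627-90460674 and chr5:90460646-90460693, the second on the reverse strand. Ces1e lies on the minus strand at chr8:93229673-93229720, Ces1g on the minus strand at chr8:93337414-93337459, Ces1b on the minus strand at chr8:93079997-93080044 and Prlr on the plus strand at chr15:10293401-10293440, with its match on the reverse strand.
Alb, position -223: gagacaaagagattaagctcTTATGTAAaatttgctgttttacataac
Alb, position -204: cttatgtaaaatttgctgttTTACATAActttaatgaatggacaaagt
Ces1e: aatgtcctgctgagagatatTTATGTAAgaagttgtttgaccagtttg
Ces1g: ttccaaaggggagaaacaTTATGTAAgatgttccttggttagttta
Ces1b: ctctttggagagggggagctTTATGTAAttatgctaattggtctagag
Prlr: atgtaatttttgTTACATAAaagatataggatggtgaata
The other 4 were Ak4, Gde1, Slc22a26 and Gm19522. Ak4, a mitochondrial adenylate kinase, fell by 1.63 and Gde1, a glycerophosphodiesterase, by 0.86 on the log2 scale. The matches in Ces1b, Ces1e and Ces1g thus stood at neighbouring genes of 1 family.

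Some families of drug-clearing enzymes had all members called in 1 direction, and others were mixed, against 17.6% of all genes tested that rose and 18.4% that fell. The families were picked after their values had been seen. Their members are related genes, and reads that aligned to several of them were not counted. All 7 Gstm genes tested rose, 5 of them at every ZT. These encode the mu class of the enzymes that join glutathione to drugs. Gstm2 lay between 25.7 and 65.4 CPM in WT and between 154 and 286 CPM in LKO (log2 fold change 2.41, SE 0.08), Gstm3 rose by 2.36 and Gstm6 by 1.48. The classes alpha and theta of the same enzymes went down, with all 4 Gsta genes lower (3 at every ZT) and all 3 Gstt genes lower at every ZT. Gstt2 fell by 2.25 from a median of 93.5 CPM to 16.8 CPM, and Gstt1 by 1.05.

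All 6 Ces1 genes tested fell, 5 at every ZT. These carboxylesterases split ester drugs and stored lipids. Ces1e fell by 2.12, from 253 to 384 CPM in WT to 51 to 109 CPM in LKO, Ces1b by 2.27, Ces1f by 1.39 and Ces1g by 1.15. In the related Ces2 family 1 of 6 rose and 2 fell. Mixed counts were also seen in the Ugt2b family (3 of 7 rose, 2 fell), in Cyp2d (1 of 7 rose, 2 fell), in Cyp3a (1 of 4 rose, 2 fell) and in Cyp4a (1 of 6 rose, 3 fell). Of 7 Ugt1a transcripts, which add glucuronic acid and share their last exons, 5 fell and none rose. Ugt1a9 fell by 3.27 and Ugt1a1, the enzyme that conjugates bilirubin, by 1.11 on the log2 scale. Of 13 Cyp2c genes 9 rose and 2 fell, and Cyp2c29 rose by 0.75 from a median of 2581 CPM to 4496 CPM.

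Over the whole list of drug and xenobiotic handling, 14 of 49 members rose (28.6%) and 25 fell (51%), with a median log2 fold change of -0.27. Over all genes tested 17.6% rose and 18.4% fell. Of the 32 genes of NRF2 and glutathione defence 7 rose (21.9%, near the share of all genes tested) and 15 fell (46.9%). With library totals alone 14 rose and 10 fell. Of the 7 that rose with TMM factors, Gstm1, Gstm2, Gstm3 and Gstm6 were higher at every ZT. Sult1a1, which sulfates phenols, fell by 1.07 at every ZT, from 519 CPM to 244 CPM in the medians, the reverse of Sult1e1. Ppara, the nuclear receptor that drives fatty acid oxidation genes and Cyp4a10, fell by 0.80, and Cyp4a10 fell by 2.70 from a median of 701 CPM to 91.4 CPM. Both were picked after their values had been seen.

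Most genes of cytosolic ribosomal proteins were higher in GF LKO livers. Of 79 cytosolic ribosomal proteins 57 rose and none fell, with a median log2 fold change of 0.25, and none was called at every ZT. Rpl31 rose by 0.81 and Rps12 by 0.74 on the log2 scale. Rps7 rose by 0.38 (SE 0.04), from 68 to 108 CPM in WT to 87.1 to 129.9 CPM in LKO, so that the ranges overlapped. Of 42 initiation and elongation factors 17 rose and 5 fell, among them Eef1a1, which brings aminoacyl-tRNA to the ribosome and rose by 0.27, and Eif4ebp1, a brake on initiation, which fell by 0.42. Of 40 ribosome biogenesis genes 10 rose (25%, against 17.6% of all genes tested) and none fell, Npm1 by 0.29. Under library totals without TMM factors 75 of the 79 ribosomal proteins rose and none fell. Many ribosomal protein genes have processed copies, and reads that align to several places were not counted, which lowers their CPM.

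Genes of antigen presentation were lower, 16 of 22 with none higher and a median log2 fold change of -0.49. Over all genes tested 17.6% rose and 18.4% fell. The class I genes H2-K1, H2-D1 and H2-Q10, which present peptides of the cell's own proteins or, as H2-Q10, are secreted by liver, fell at every ZT. H2-K1 lay between 959 and 1324 CPM in WT and between 590.4 and 912 CPM in LKO (log2 fold change -0.68, SE 0.05). H2-D1 fell by 0.57 and H2-Q10 by 0.45. Class II genes such as H2-Ab1 and Cd74, which mark macrophages and B cells, also fell. Beside them, 7 of 8 markers of Kupffer cells, the resident macrophages of the liver, fell, with a median of -0.27 and a summed level of 184 to 355 CPM in WT and 142 to 308 CPM in LKO, and their part in the result was not tested. With library totals alone 10 antigen presentation genes fell, 1 rose and 0 of the 8 Kupffer cell markers were called. Of 32 interferon-stimulated genes 3 rose (9.38%) and 7 fell (21.9%), the latter near the share of all genes tested. With library totals alone 7 of them rose and 3 fell.

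Secreted proteins of blood defence went both ways, against 17.6% of all genes tested that rose and 18.4% that fell. Of 44 complement and coagulation genes 9 rose and 23 fell, and with library totals alone 20 rose and 5 fell, so that the balance turned with the scaling. C9, the pore-forming end of the complement cascade, rose at every ZT, from 626 to 1097 CPM (median 834) in WT to 1613 to 2925 CPM (median 2303) in LKO, by 1.37 (SE 0.08) on the log2 scale. C2, an early protease of the same cascade, fell at every ZT by 0.70. Of 29 acute phase genes 7 rose and 10 fell, and with library totals alone 13 rose and 6 fell. Itih3, a carrier of hyaluronan, rose by 0.80 and Cp, the copper ferroxidase ceruloplasmin, by 0.67, both at every ZT, and Serpina3m, a protease inhibitor, fell by 1.43. Serpina12, the protease inhibitor vaspin, rose at every ZT from 81.9 CPM to 371 CPM in the medians (log2 fold change 2.20), and its neighbour in the same cluster, Serpina6, which carries glucocorticoids in blood, fell by 1.5. Serpina12 and Serpina6 were picked after their values had been seen.

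Nuclear-encoded subunits of the respiratory chain were lower by little, 29 of 46 with none higher and a median of -0.13, and with library totals alone 15 rose and 2 fell. Over all genes tested 17.6% rose and 18.4% fell with TMM factors. Of 30 autophagy genes 16 fell and 3 rose, and with library totals alone 5 fell and 13 rose. Map1lc3a, the precursor of a membrane-bound form of LC3, fell at every ZT, by 0.48 (SE 0.05). Of 33 proteasome genes 10 fell and 1 rose, and with library totals alone 1 fell and 21 rose. Sdhd, a membrane anchor of complex II, fell by 0.30 and Psma6, a ring subunit of the proteasome core, by 0.27 with TMM factors. The direction of these 3 lists, all with medians smaller in size than the shift between the scalings, thus rested on the scaling.

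The shares of stress genes that fell lay near the 18.4% of all genes tested. Of 33 endoplasmic reticulum stress genes 7 fell (21.2%) and none rose, but with library totals alone 3 fell and 11 rose. Asns, which makes asparagine and is a target of ATF4, fell by 2.81 and Trib3, a pseudokinase and another target of ATF4, by 1.64 on the log2 scale. Of 26 heat shock chaperones 5 fell (19.2%) and 1 rose, but with library totals alone 1 fell and 7 rose. Hspb1, a small heat shock protein, fell by 1.57. Of 35 cell cycle and DNA replication genes 16 rose (45.7%) and 5 fell (14.3%), against 17.6% and 18.4% of all genes tested. Mcm10 and Rrm2 were among those that fell. The ZT means of Mcm10 lay between 56.5 and 148 CPM in WT and between 27.7 and 61.6 CPM in LKO. Those of Rrm2 lay between 2.63 and 7.68 CPM in WT and between 1.13 and 2.64 CPM in LKO. Cdk6, a kinase of the G1 phase, rose at every ZT from 14.4 to 36.5 CPM in WT to 35.1 to 56.7 CPM in LKO (log2 fold change 0.92, SE 0.06). Tuba8, an alpha tubulin, rose at every ZT by 3.14.

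Genes that differ between the livers of male and female mice were also shifted in these males. Of 26 female-biased genes 16 were tested, and 12 of these fell and 3 rose, with a median of -1.87. Cyp17a1, which makes androgens and estrogen precursors, fell at every ZT from a median of 12.4 CPM to 2.04 CPM. Acot3 and Acot4, thioesterases, fell by 4.92 and 1.57. Of 22 male-biased genes 8 rose (36.4%) and 6 fell (27.3%), against 17.6% and 18.4% of all genes tested. Cyp7b1, a hydroxylase of oxysterols, rose at every ZT by 1.34, from 586 CPM to 1356 CPM in the medians, while Cyp4a12a, which oxidises arachidonic acid, fell by 1.06. Prlr, the prolactin receptor, rose at every ZT from a median of 131 CPM to 288 CPM (log2 fold change 1.11, SE 0.08).

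**Figure D4:**
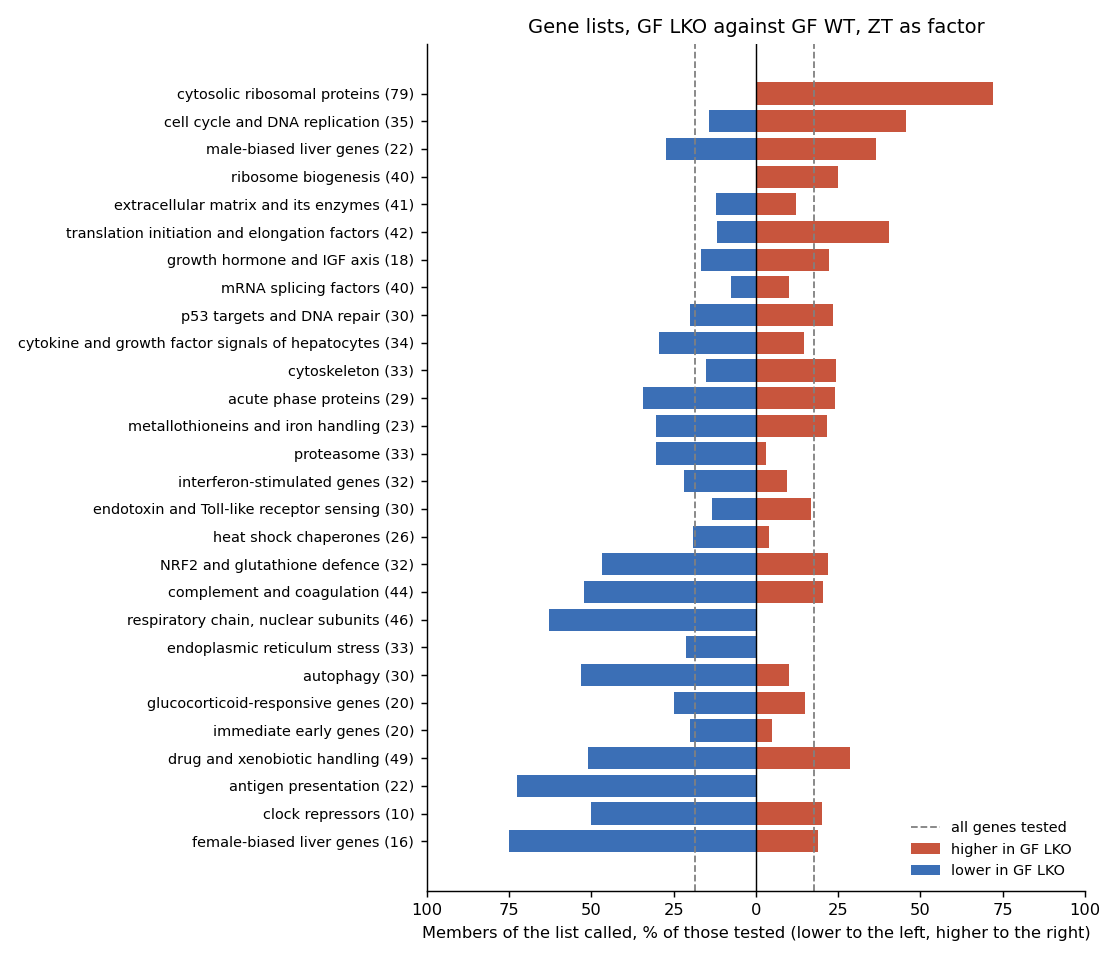
Share of the tested members of each gene list that was called in GF LKO against GF WT with ZT as a factor (red to the right, higher; blue to the left, lower), with the number tested in parentheses, lists ordered by median log2 fold change and dashed lines at the share of all genes tested (17.6% higher, 18.4% lower). Of the 79 ribosomal proteins 57 rose and none fell, and of 22 antigen presentation genes 16 fell and none rose; with library totals alone the balance turned for the respiratory chain, autophagy, proteasome, complement and coagulation, endoplasmic reticulum stress, heat shock, NRF2 and glutathione, acute phase, interferon, cytokine, and metallothionein and iron lists.

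For 568 genes the genotype effect depended on ZT. Of these 230 were also called higher with ZT as a factor, 192 lower and 146 not at all, and 51 were called higher at one ZT and lower at another. The ZT with the largest effect was ZT10 for 143 genes higher and 85 lower in LKO, and ZT22 for 4 and 12. Outside the clock lists the smallest p-values belonged to Clpx, Dtx4, Elovl3, Gys2, Slc30a10 and Lgalsl. All 6 had a wide daily course in WT livers and a narrow one in LKO livers.

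Elovl3, which lengthens very long fatty acids, averaged 118 CPM at ZT10 and 1560 CPM at ZT22 in WT, a 13.2-fold span, against a 1.41-fold span between 1620 and 2286 CPM in LKO. Clpx, the unfoldase of a mitochondrial protease, spanned 6.83-fold in WT means, from 79.0 to 540 CPM, and 1.60-fold in LKO, from 452 to 725 CPM. Slc30a10, the exporter of manganese, spanned 9.11-fold in WT and 1.36-fold in LKO. In these 3 genes LKO livers lay near or above the WT maximum. Dtx4, a ubiquitin ligase, and Lgalsl, a galectin-like protein, did so too and were higher at every ZT. Gys2, the liver glycogen synthase, lay the other way, with WT means between 123 and 594 CPM and LKO means between 78.5 and 106 CPM, and was lower at every ZT.

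The genotype effect in GF mice was set beside that in SPF mice, in 1 fit over 71 libraries. In 3 of the 36 SPF libraries, SPF LKO ZT14 replicate 2, SPF LKO ZT18 replicate 1 and SPF WT ZT14 replicate 3, expression went against the labels. In the first and second of them Lpl was at 20.7 and 34.2 CPM, near the GF WT range. Values without all 3 SPF libraries are therefore given as well. The effect differed between GF and SPF mice for 83 of 14936 genes (0.556%), and for 66 without the 3 libraries. Of the 318 genes shifted at every ZT in GF mice, 316 were also called in SPF mice in the same direction, where 27.9% of genes were called in either direction, and 317 without the 3 libraries. The effect differed from that in SPF mice for 44 of the 318, and for 34 without the 3. The 318 were picked by their values in GF mice, which also enter this test. Larger effects in GF mice were thereby favoured, so these counts do not measure how far the effect depends on microbes.

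Cyp3a11, the main drug-oxidising P450 of mouse liver, had the smallest p-value of this comparison. Its levels are given on a scale shared by GF and SPF libraries, which differs a little from that of the 35 libraries. On this scale Cyp3a11 lay between 518 and 1116 CPM (median 598) in GF WT and between 119 and 348 CPM (median 173) in GF LKO. Its medians were 5199 CPM in SPF WT and 6069 CPM in SPF LKO. It fell at every ZT in GF mice, with a log2 fold change of -1.89, and was not called in SPF mice (0.25, edgeR adjusted p = 0.222). The difference between the effects was -2.13 (edgeR adjusted p = 2.16e-10) and -2.05 without the 3 libraries. SPF WT livers thus held more Cyp3a11 than GF WT livers, and the gap to LKO was seen in GF mice. Apoa4, an apolipoprotein of chylomicrons, rose by 1.0 in GF mice and had a log2 fold change of -0.05 in SPF mice (edgeR adjusted p = 0.78), a difference of 1.06.

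For the other genes the effects had the same direction and differed in size. Gpx6 fell by 3.63 in GF mice and by 1.26 in SPF mice (1.55 without the 3 libraries), and the difference was -2.37. On the scale shared by GF and SPF libraries the SPF WT median of Gpx6 was 1.71 CPM against 8.94 CPM in GF WT, while the LKO medians were 0.651 and 0.789 CPM. Ces1e fell by 2.12 and 0.94 (difference -1.17) and Ces1f by 1.39 and 0.52 (difference -0.87). Lmo2, a LIM-domain cofactor of transcription, rose by 1.43 and 0.63 (difference 0.81). Alb fell by 1.71 in GF mice and by 1.02 in SPF mice, or 1.25 without the 3 libraries, and the difference was -0.67 (edgeR adjusted p = 0.0109) with them and -0.45 (edgeR adjusted p = 0.0228) without. Lpl rose by 3.96 in GF mice and by 4.15 in SPF mice, a difference of -0.18 that was not called (edgeR adjusted p = 0.943).

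**Figure D5:**
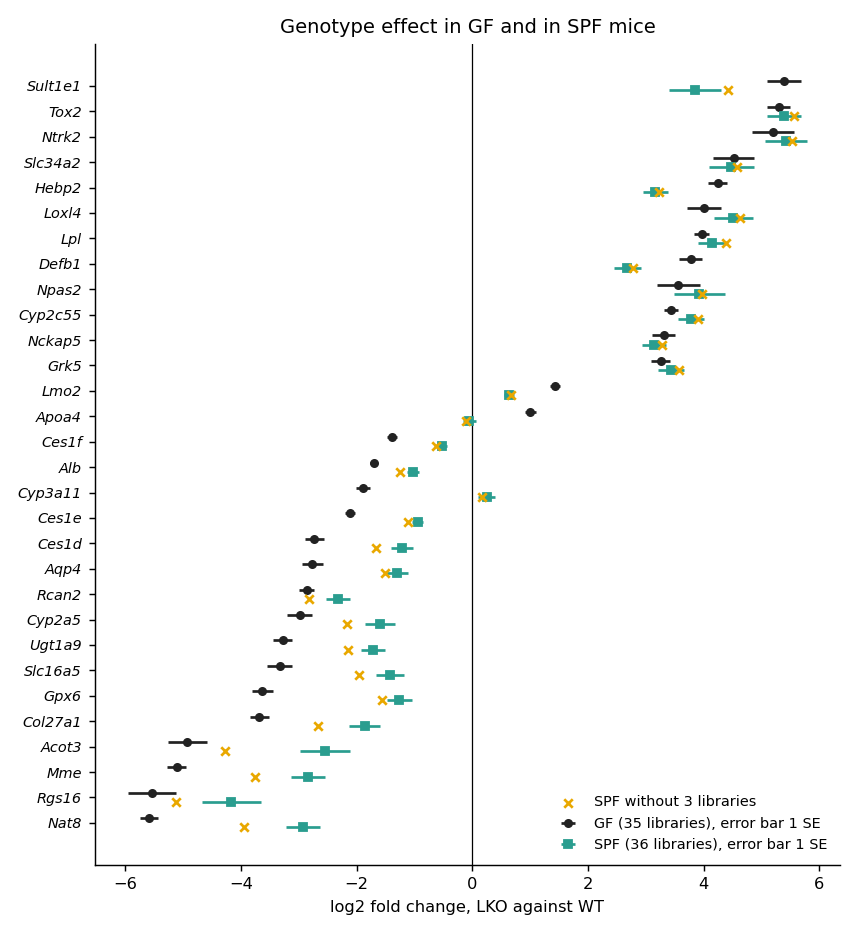
Log2 fold change of LKO against WT in GF mice (black, 35 libraries) and in SPF mice (green, 36 libraries) with bars of 1 SE, and in SPF mice without the 3 libraries that went against their labels (yellow crosses), for the genes with the largest shifts at every ZT, the genes that differed most between GF and SPF mice, and Alb. Lpl lies at 3.96 and 4.15, while Cyp3a11 lies at -1.89 in GF mice and at 0.25 in SPF mice.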

How the data were processed

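Liver RNA-seq counts of 72 mice were used as deposited. The authors aligned reads with STAR 2.6.1b (GRCm38) and ran featureCounts 2.0.0 over the exons of Ensembl 97. Strand was not used, and reads with several alignments or several genes were dropped, so overlapping or antisense genes and near-identical copies are uncertain. The deposited values are raw counts. Groups and ZT came from the labels. GF WT ZT6 replicate 3 was left out. Genes were tested with edgeR 4.0.16 (R 4.3.3): TMM, filterByExpr, the quasi-likelihood F test with ZT as factor, 12 group means for each ZT, the interaction, and GF against SPF on 71 libraries, with Benjamini-Hochberg adjustment at 0.05. DESeq2 1.42.0, other scalings, filters and left-out libraries were alternatives. Scripts were tested on simulated data. The members and gene lists were chosen with earlier results of these data known. Named were the clock genes, the 12 largest increases and 12 largest decreases at every ZT (mean level of 1 or more in log2 CPM, predicted genes left out), up to 3 genes of a list, 6 for ZT and 6 for GF against SPF, beside those said to be picked after their values were seen. Promoters are RefSeq's (GRCm38.p6). Counts limit precision at low CPM. A member of the clock list is not reported here.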

Additional observations from a re-analysis of the deposited data

Results flagged for a closer look

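The genotype effect in GF mice differed between ZT for 33 of the genes named, by a test of the difference itself over the 35 libraries. For the clock genes the edgeR adjusted p of this test was 1.94e-14 for Arntl, 1.42e-06 for Clock, 1.09e-11 for Npas2, 1.98e-07 for Per2, 1.81e-10 for Per3 and 5.18e-12 for Cry1. Among their repressors and the D-box factors it was 1.64e-05 for Nr1d1, 5.32e-09 for Nr1d2, 0.00452 for Bhlhe40, 0.00347 for Bhlhe41, 0.00193 for Ciart, 3.76e-12 for Dbp, 2.98e-13 for Tef and 3.79e-06 for Nfil3. Among the genes with the largest shifts at every ZT it was 1.86e-07 for Loxl4, 1.4e-05 for Grk5, 0.0143 for Col27a1, 5.05e-05 for Cyp2a5 and 5.98e-06 for Ces1d, again as edgeR adjusted p. These 5 kept 1 direction at all 6 ZT and differed in size.

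The genes outside the clock that were named for this difference had an edgeR adjusted p of 5.53e-14 for Clpx, 1.49e-11 for Dtx4, 4.81e-11 for Elovl3, 4.81e-11 for Gys2, 6.9e-11 for Slc30a10 and 1.81e-10 for Lgalsl. Of the members of gene lists, Ces1f (0.0118), Stat5b (0.00966), Pdk4 (0.0298), Tuba8 (0.0194), Aco1 (0.0271), Gstt2 (0.0377), Ces1g (0.000433) and Serpina6 (0.000168) also had an effect that differed between ZT by the edgeR adjusted p.

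The effect differed between GF and SPF mice for 16 of the genes named, by a test of the difference over 71 libraries, and the sizes given are GF minus SPF log2 fold changes. Many of the genes named were picked by their values in GF mice, which also enter this test. The difference was -2.65 for Nat8, -2.26 for Mme, -2.37 for Gpx6, -2.13 for Cyp3a11, -1.91 for Slc16a5 and -1.81 for Col27a1. It was -1.55 for Ugt1a9, -1.5 for Ces1d, -1.46 for Aqp4, -1.17 for Ces1e, -0.87 for Ces1f, -0.81 for Ces1g, -0.67 for Alb and -0.47 for Gstt1. Apoa4, with 1.06, and Lmo2, with 0.81, lay on the other side. Without the 3 SPF libraries that went against their labels, all of these differences but that of Apoa4 (1.12) were smaller in size. They were -1.62 for Nat8, -1.35 for Mme, -2.07 for Gpx6, -2.05 for Cyp3a11, -1.37 for Slc16a5 and -1.01 for Col27a1. For Ugt1a9, Ces1d, Aqp4 and Ces1e they were -1.12, -1.06, -1.25 and -1.01. Those of Col27a1 (edgeR adjusted p = 0.0908) and Gstt1 (edgeR adjusted p = 0.0513) were no longer called. That of Gstm3 (-1.03, edgeR adjusted p = 0.000474) was called there and not with them. The part of the 3 libraries in these differences was not tested beyond the fit without them.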

How the results depend on the processing

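With library totals in place of TMM factors, a scaling added after the data were seen, 8066 genes were called with ZT as a factor, 6973 higher and 1093 lower in LKO, so that 86.4% of the calls were increases against 48.9% with TMM. The count rose to 1658 at ZT2, 3655 at ZT18 and 2298 at ZT22, and at every ZT to 504 genes, 395 higher and 109 lower. With Alb also left out of the totals 4272 genes were higher and 1589 lower, 72.9% increases, and the median log2 fold change of all genes was 0.09. Under library totals the log2 fold change turned sign for Per1 (0.14), Tef (0.06), Hnrnpd (0.004), Sf3b1 (0.078), Psmd12 (0.009) and Gc (0.10), and without Alb in the totals for Per1 (0.048) and Gc (0.002). Of the lists with a median of at least 0.1 in size, those whose median turned under library totals were autophagy (0.039), complement and coagulation (0.06), endoplasmic reticulum stress (0.05), erythroid markers (0.067), hepatocyte markers (0.074) and the respiratory chain (0.053). Every list with a median between -0.1 and 0 turned as well. These turns follow from the shift of 0.19 in the median of all genes.

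With a log2 fold change of at least 1 required, 682 of the 5051 calls were left. Other definitions of a shift at every ZT gave 3416 genes (called with ZT as a factor and of 1 sign at all ZT), 513 (no overlap of libraries at any ZT) and 200 (each ZT fitted alone, with fewer libraries per fit). The effect depended on ZT for 568 genes, 960 by DESeq2, 1655 without a filter on low counts and 377 with a replicate block, and it differed between GF and SPF mice for 83, or 162 without the filter. The cause of these moves was not tested.

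Leaving out each of the 35 libraries in turn gave 4827 to 5250 calls with ZT as a factor, 242 to 322 at every ZT, 521 to 847 at ZT2 and 699 to 1576 at ZT6, and 160 of the 318 genes shifted at every ZT were called in all 35 fits. The log2 fold change of Per1 ran from -0.118 to 0.02 and that of Per2 from -0.045 to 0.076. Per2 also turned with GF WT ZT6 replicate 3 kept (-0.052), with ZT pooled (-0.21), without ZT2 (-0.22) and without ZT22 (-0.20). Per1 turned with the replicate block (0.023), without ZT6 (0.066) and without ZT10 (0.029). Tef turned without ZT6 (0.021) and ZT10 (0.11), Nfil3 with ZT pooled (-0.044) and without ZT10 (-0.014), and Arntl without ZT22 (0.034). None of these 5 genes was called over all ZT, but without ZT10 Arntl was (-0.84, edgeR adjusted p = 0.0123).

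The replicate numbers of the labels did not pair the mice: over 17 pairs of WT and LKO libraries the deviations from the group means correlated between -0.14 and 0.19, above 0.1 in 2 pairs. With the replicate block 4623 genes were called and 290 at every ZT, of which 273 were among the 318. Depth limited the genes whose WT median lay under 0.5 CPM, where 1 group holds few reads.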

Other observations

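Lists of hormone, cytokine and microbe-sensing genes had members on both sides, against 17.6% of all genes tested that rose and 18.4% that fell. Shares near these are not read as a result about a list. Of 20 glucocorticoid-responsive genes 3 rose (15%) and 5 fell (25%), and with library totals alone 4 rose and 4 fell. Fkbp5, a chaperone partner of the glucocorticoid receptor, fell by 1.17 on the log2 scale from a median of 51.7 CPM to 20.8 CPM, while Pdk4, which restrains pyruvate oxidation, rose by 1.15. Of 18 genes of the growth hormone and IGF axis 4 rose (22.2%) and 3 fell (16.7%), and with library totals alone 11 rose and none fell. With TMM factors Stat5b, the transcription factor of growth hormone signals, rose by 0.48, and Irs2, an adaptor of the insulin receptor, by 0.95. Of 30 genes of endotoxin and Toll-like receptor sensing 5 rose (16.7%) and 4 fell (13.3%), and with library totals alone 8 rose and 1 fell. Tlr5, the receptor of flagellin, fell by 1.56 from a median of 6.26 CPM to 2.22 CPM and was called at 5 ZT, and Irak4, a kinase of the same pathway, rose by 0.46. Of 34 cytokine and growth factor genes of hepatocytes 5 rose and 10 fell, and with library totals alone 12 rose and 7 fell. Fst, the activin antagonist follistatin, rose by 1.59, and Tnfrsf19, a receptor of the TNF family, fell by 1.46. Of 20 immediate early genes 1 rose (5%), Nr4a1, by 1.66, and 4 fell (20%). With library totals alone 2 of them rose and 2 fell.

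Of 30 genes of p53 and DNA repair 7 rose (23.3%) and 6 fell (20%), against 17.6% and 18.4% of all genes tested. With library totals alone 16 of them rose and 2 fell. Brca1 lay between 1.39 and 4.56 CPM in WT and between 0.608 and 1.62 CPM in LKO and fell by 1.32. Of 41 matrix genes 5 rose (12.2%) and 5 fell (12.2%), and with library totals alone 21 rose and 4 fell. Of 33 cytoskeleton genes 8 rose (24.2%) and 5 fell (15.2%), and with library totals alone 14 rose and 2 fell. Of 23 genes of metallothioneins and iron handling 5 rose and 7 fell, and with library totals alone 10 rose and 3 fell. With TMM factors Slc40a1, the iron exporter ferroportin, fell by 0.39. Of 40 splicing factors 4 rose (10%) and 3 fell (7.5%) with TMM factors, and 34 rose and none fell with library totals alone. Of the 2 cold-inducible RNA-binding proteins Rbm3 rose by 0.34.

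Markers of other cells and of neighbouring tissue were counted as well, against 17.6% of all genes tested that rose and 18.4% that fell. The 8 markers of cholangiocytes summed to 26.3 to 56.2 CPM in WT and 43.2 to 155 CPM in LKO, and of 7 tested Spp1, osteopontin, rose by 1.15 and Sox9 by 0.81 while the other 5 were not called. Of 4 tested markers of monocytes and neutrophils 2 fell, of 5 of erythroid cells 2 fell, with Alas2 down by 0.61, and of 6 of T and NK cells none was called. Of 5 tested markers of B and plasma cells Ighm rose by 0.50 and Jchain by 0.80. Stab2 was the 1 endothelial marker of 8 that rose and 2 fell, while with library totals alone 2 rose and none fell. Of 8 stellate cell markers 1 rose, and with library totals alone 7 rose. Of the pancreas markers 2 passed the filter. Cela1, an elastase, lay between 29.1 and 69.6 CPM in WT and between 67.2 and 129.96 CPM in LKO and rose at every ZT by 1.10, while Amy2a5, a pancreatic amylase, was at 0 in all 35 libraries. Cfd, adipsin, lay between 0.0556 and 8.02 CPM in WT and between 0 and 0.104 CPM in LKO, and Lep, leptin, was at 0 in all 35. The part of these cells and tissues in the results was not tested.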
